A study of Mus musculus with 6 samples.

Results

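The genes examined here encode the proteins that license origins of DNA replication, unwind the DNA and copy it at the fork. They were chosen by function, as 55 gene symbols looked up in the deposited expression table, and each symbol was found once among the 41079 genes listed. All 55 had a mean of at least 1 TPM, a unit of reads per gene length scaled to the same total in each library, and were among the 12227 genes tested. The cells were D10.G4.1 (D10), a cloned CD4+ helper T cell line of the mouse that recognizes a conalbumin peptide. Cold-acclimated D10 cells were held at 26°C for 24 h and non-acclimated D10 cells at 37°C for 24 h, with 3 replicates each and no other treatment or allele, and the study's methods add interleukin-2 to the culture medium. The labels give the same cloned line for all 6 libraries, and RNA was extracted in batches that the labels name old and new without assigning libraries to either.

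Replication is licensed when the origin recognition complex, Cdc6 and Cdt1 load the Mcm2-7 helicase onto DNA, which occurs before S phase. The Dbf4-dependent kinase and a set of activating factors, among them Cdc45 and the GINS complex, then turn the loaded helicase into a working fork, where the polymerases alpha, delta and epsilon copy the strands with the help of the sliding clamp PCNA, its loader RFC and the single-strand binding protein RPA. Many of these genes are known as targets of the E2F transcription factors, and in helper T cells they are transcribed when growth factor signals drive the cells into division.

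The libraries held 16899628 to 31290854 recovered reads on genes. Replicate 3 stood apart from replicates 1 and 2 in both conditions. Cd4, which the cell type label names, had 1.09, 0.0351 and 309.7 TPM in replicates 1, 2 and 3 at 37°C and 1.299, 0.352 and 328 TPM at 26°C, so the labelled marker was present in replicate 3 and close to absent in the other libraries. Replicate 2 stood apart for 2 other T cell genes, again in both conditions. Cd3d, a subunit of the T cell receptor complex, had 332, 64.3 and 240.1 TPM in replicates 1, 2 and 3 at 37°C and 304, 78.6 and 243 TPM at 26°C, and Cd28, a costimulatory receptor, had 54.5, 7.35 and 53.6 TPM at 37°C and 27.9, 5.61 and 36.2 TPM at 26°C. The T cell marker genes, 10 in all, summed to 3450 to 5941 TPM in every library, and the B cell markers to at most 1.11 TPM. Of the 10, 5 had a log2 fold change (26°C against 37°C) below 0. Among these Il2ra had 1360, 1674 and 2026 TPM at 37°C and 327, 217 and 313 TPM at 26°C. The macrophage markers summed to 2.46 to 3.39 TPM in replicates 1 and 2 against 15.9 and 21.2 TPM in replicate 3. In replicate 3 these sums came from Lyz2 (11.6 TPM at 37°C and 14.8 TPM at 26°C) and Cd68 (4.27 and 6.36 TPM). The other macrophage markers had at most 0.0253 TPM there. Because replicate 3 stood apart, the counts of called genes below are also given without it, an alternative added after the values were seen. The part of the marker differences of replicates 2 and 3 in the results was not tested.

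The replication genes were lower in cold-acclimated cells in replicates 1 and 2, whereas in replicate 3 they stayed near the level of all genes. Their summed level was 4496, 5804 and 6663 TPM in replicates 1, 2 and 3 at 37°C and 2093, 1684 and 5951 TPM at 26°C. The sum of replicate 3 at 26°C was therefore inside the range of the 37°C libraries, while the other 2 sums at 26°C were below every 37°C library. The median log2 fold change of TPM + 1 over the 55 genes, 26°C against 37°C, was -1.55 in replicate 1, -2.34 in replicate 2 and -0.40 in replicate 3, beside -0.32, -0.44 and -0.24 over all tested genes. A fall of at least 1 on the log2 scale was seen for 38 of the 55 genes in replicate 1 (69.1%, against 26.5% of all tested genes), for 42 in replicate 2 (76.4%, against 30.8%) and for 5 in replicate 3 (9.09%, against 15.3%). Values below 0 were seen for 51, 51 and 42 genes in replicates 1, 2 and 3 (92.7%, 92.7% and 76.4%, against 64.1%, 67.6% and 64.2% of all tested genes). They were below 0 in every replicate for 40 of the 55 genes (72.7%, against 47.9% of all tested genes). Mki67, which encodes the proliferation marker Ki-67, had its 2 lowest levels in the same libraries, with 229.9, 235 and 163 TPM at 37°C and 62.1, 43.1 and 173 TPM at 26°C in replicates 1, 2 and 3. In RNA from a whole culture, fewer cells in S phase and less RNA of these genes per cell cannot be told apart.

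**Figure D1:**
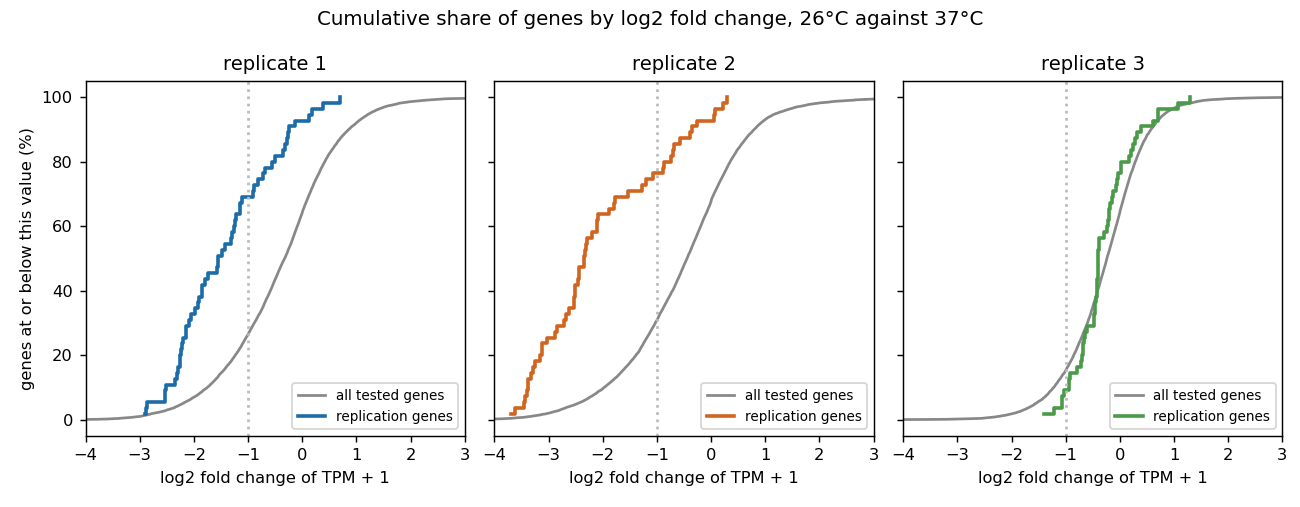
Cumulative share of genes in percent (vertical axis) by log2 fold change of TPM + 1, 26°C against 37°C (horizontal axis), in replicates 1, 2 and 3, with the 55 replication genes in colour, all 12227 tested genes in grey and a dotted line at -1. The coloured curve lies to the left of the grey one in replicates 1 and 2, with medians of -1.55 and -2.34, and close to it in replicate 3, with a median of -0.40.

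Differential expression was tested with limma over all 12227 genes, without a replicate term. Calling a gene took both a change of at least 1 on the log2 scale and a p under 0.05 after Benjamini-Hochberg adjustment. By this rule 12 of the 55 genes were downregulated (21.8%, against a background of 16.0% of all tested genes) and 0 were upregulated (background 2.63%). At an unadjusted p under 0.05, 31 of the 55 were lower (56.4%, against 30.0%) and 0 were higher (background 7.75%). The 12 genes, in order of p, were Mcm8, Pold3, Chaf1a, Orc5, Gins4, Pole2, Pold1, Wdhd1, Gins3, Mcm10, Lig1 and Pola2. All 14 functional groups but 5 held at least 1 of them, and the groups without one were the Mcm2-7 helicase, the helicase loading factors, the Dbf4-dependent kinase, the clamp and its loader, and RPA. The conditions did not overlap for 17 genes that were lower at 26°C (30.9%, against 31.4% of all tested genes) and for 1 that was higher, Pold2 (1.82%, against 9.69%).

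How many genes passed depended on how replicate 3 was treated and on how the values were scaled. Same-numbered libraries of the 2 conditions deviated together, and with the replicate number as a block limma called 32 of the 55 genes downregulated (58.2%, against 21.9%) and 0 upregulated (background 3.75%). Without replicate 3 in both conditions 39 were downregulated (70.9%, against 25.5%) and 0 upregulated (background 5.41%), and with cold-acclimated replicate 3 alone left out 41 were downregulated (74.5%, against 22.3%). All 12 genes were among the called genes in each of these 3 fits. Leaving out 1 library at a time, limma called 0 genes when it was non-acclimated replicate 1 or 2 or cold-acclimated replicate 1 (backgrounds 4.29%, 2.73% and 3.82%), 1 gene (Mcm8) when it was cold-acclimated replicate 2 (1.82%, against 4.90%) and 6 when it was non-acclimated replicate 3 (10.9%, against 15.0%). After median of ratios scaling, which moved the median of all genes from -0.34 to 0.02, 4 genes were downregulated (Mcm8, Pold3, Chaf1a and Pole2, 7.27% against 8.79%) and 0 upregulated (background 6.56%). With this scaling the block gave 22 downregulated genes (40.0%, against 12.6%) and 1 upregulated gene, Pole3 (1.82%, against 8.88%), and leaving out replicate 3 gave 38 downregulated genes (69.1%, against 15.7%) and 0 upregulated genes (background 11.7%). Quantile normalization and limma-voom on recovered reads each gave 5 downregulated genes (9.09%, against 6.26% and 9.18%) and 0 upregulated (backgrounds 5.98% and 6.27%), with Mcm8, Pold3 and Chaf1a in both, Gins4 and Lig1 in the former and Pold1 and Pole2 in the latter. Relative to the median of all genes, the median of the 55 genes was -1.01 on the values as deposited and -0.9995 after median of ratios scaling. For the counts by functional group below, the shares of all tested genes called downregulated were 16.0% on the values as deposited, 21.9% with the block and 25.5% without replicate 3.

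**Figure D2:**
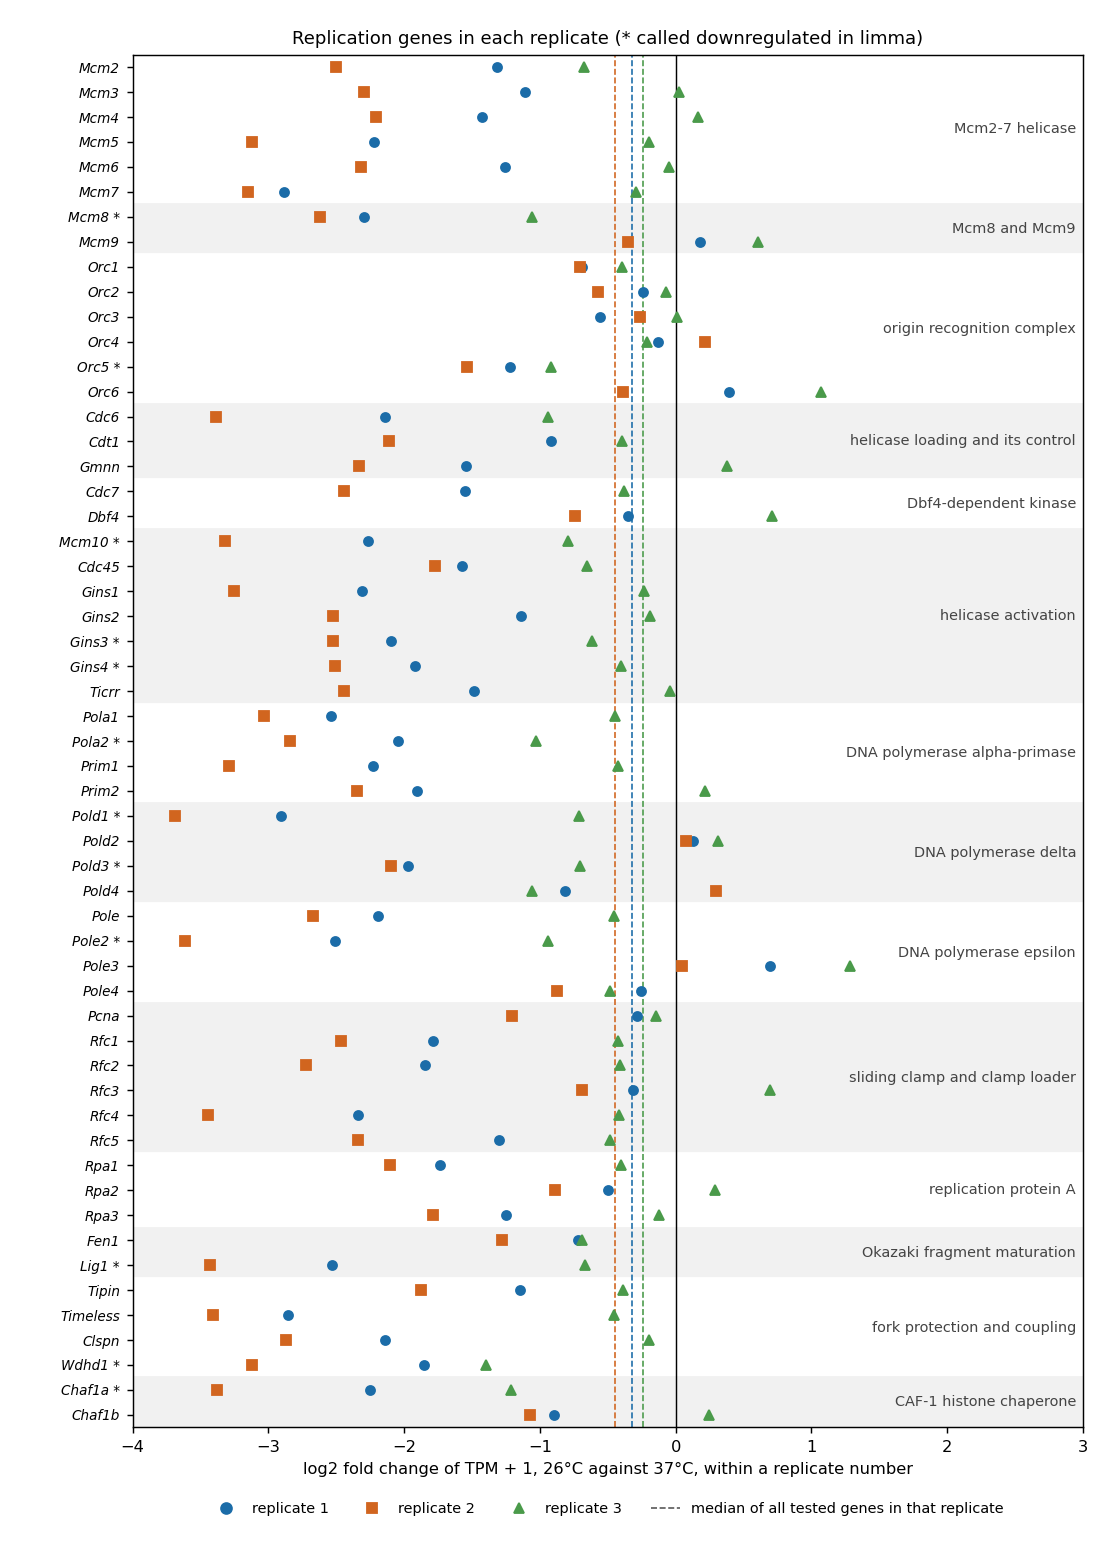
Log2 fold change of TPM + 1, 26°C against 37°C, of each of the 55 replication genes (horizontal axis) in replicate 1 (circles), replicate 2 (squares) and replicate 3 (triangles), by functional group, with the median of all tested genes per replicate as dashed lines and an asterisk at the 12 called genes. Replicates 1 and 2 lie left of replicate 3 for most genes, and Pold2 and Pole3 lie above 0 in every replicate.

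The promoters of these genes were read from GRCm39, from 250 bases before to 50 bases after the start of the Ensembl canonical transcript (GENCODE M39), and searched on both strands for the E2F letters TTTCCCGC, TTTCGCGC, TTTGCCGC and TTTGGCGC. A match was present in 17 of the 55 promoters (30.9%), compared with 2.82% of 21757 protein-coding promoters and 4.22% of the 10218 promoters of protein-coding genes tested. CCAAT, the letters bound by NF-Y, was present on either strand in 31 of the 55 (56.4%), compared with 39.9% and 40.1%. The stretches below show such matches in 9 functional groups, each 5′ to 3′ on the strand of the gene, with the E2F letters in capitals, in whichever orientation they lie. They are given because E2F letters recur in genes of several functional groups. TTTGGCGC is shown for Pola1, Pole2, Mcm5, Mcm8, Tipin, Gins1 and Cdc6, with log2 fold changes from -1.14 (Tipin) to -2.35 (Pole2). Mcm3 (-1.13), Cdt1 (-1.14), Mcm6 (-1.21) and Pole (-1.77) also hold TTTGGCGC and are not shown. TTTCGCGC is shown for Orc1 (-0.60) and Rfc3 (-0.10), and Mcm5 (-1.85) and Mcm6 (-1.21) also hold it:
Pola1: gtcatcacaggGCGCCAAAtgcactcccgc
Pole2: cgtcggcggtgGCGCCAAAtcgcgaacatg
Mcm5: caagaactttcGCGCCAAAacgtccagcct
Mcm8: agcagaagcgcgtcatagacGCGCCAAAaa
Tipin: gcctacccttgGCGCCAAAtttctcagctt
Gins1: ggttgagcctaTTTGGCGCcaaagcgagga
Cdc6: gaaggctgaagtagagcggcTTTGGCGCga
Orc1: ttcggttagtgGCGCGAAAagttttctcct
Rfc3: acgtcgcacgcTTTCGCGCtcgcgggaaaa

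These stretches lie at chrX:92675881-92675910 (Pola1, minus strand), chr12:69274936-69274965 (Pole2, minus), chr8:75835977-75836006 (Mcm5, plus), chr2:132658080-132658109 (Mcm8, plus), chr9:64188837-64188866 (Tipin, plus), chr2:150751494-150751523 (Gins1, plus), chr11:98798647-98798676 (Cdc6, plus), chr4:108436613-108436642 (Orc1, plus) and chr5:151574665-151574694 (Rfc3, minus) of GRCm39. The capitals begin 86 bases before the start site in Pola1 and 152 bases before it in Mcm5, and otherwise 5 to 41 bases into the transcript. In Gins1 the letters read the same on both strands over 12 bases, so that matches on the plus and the minus strand overlap. The 17 genes with a match had a median log2 fold change of -1.17, with 2 called (Mcm8 and Pole2, 11.8%) and 9 called with the replicate block (52.9%). The 38 genes without a match had a median of -1.39, with 10 called (26.3%) and 23 called with the block (60.5%). Among all tested genes with a promoter in the table the medians were -0.40 with and -0.36 without a match, and the shares called were 17.6% and 17.0%, or 26.2% and 22.7% with the block. Within the set, the median was not lower for genes with these letters, and no test was made. A promoter without a match lacks only these exact letters in this window. Whether E2F factors bind any of these promoters was not tested.

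Of the 6 genes of the Mcm2-7 helicase, the ring that is loaded at origins and unwinds the DNA, 0 were called (background 16.0%). With the replicate block 3 (Mcm2, Mcm5 and Mcm7) were called (background 21.9%). Mcm2 had 205, 300.3 and 317 TPM in replicates 1, 2 and 3 at 37°C and 82.02, 52.1 and 198 TPM at 26°C, so that every 26°C library was below every 37°C library (log2 fold change -1.50 ± 0.47 (standard error), limma adjusted p = 0.059, 0.018 with the block). Mcm3, the helicase gene with the highest mean level at 37°C, had 213, 296 and 449 TPM at 37°C and 97.8, 59.5 and 457 TPM at 26°C. Its log2 fold change was -1.11 in replicate 1, -2.30 in replicate 2 and 0.02 in replicate 3, where the level was nearly the same in both conditions, and the 95% interval of the mean change was -2.77 to 0.51. All 6 genes passed without replicate 3 (background 25.5%), with a group median of -1.37 in replicate 1, -2.41 in replicate 2 and -0.12 in replicate 3.

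The 6 helicase genes, whose products join in equal numbers in the ring, had similar TPM at 37°C and spread apart at 26°C. The highest level of the 6 was 1.72, 1.76 and 1.88 times the lowest in replicates 1, 2 and 3 at 37°C, and 5.55, 2.90 and 2.34 times at 26°C. Mcm3 was the highest and Mcm7 the lowest gene in each 26°C library, and the ratio of Mcm7 to Mcm3 was 0.644, 0.643 and 0.532 at 37°C and 0.1801, 0.345 and 0.427 at 26°C. This spread and the other ratios of genes given below were chosen after their values were seen and are descriptions, with no test. A ratio within a library does not depend on how libraries are scaled against each other. Mcm7 overlaps Ap4m1 on the opposite strand and Mir25, Mir93 and Mir106b on the same strand, and the part of shared reads was not tested.

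Mcm8 and Mcm9 encode related helicase subunits that work as a pair in recombination repair, and the values of the genes differed. Mcm8, on chromosome 2 (132658061 to 132686117, GRCm39), had 28.2, 26.1 and 17.05 TPM in replicates 1, 2 and 3 at 37°C and 4.95, 3.42 and 7.66 TPM at 26°C. It was downregulated with no overlap and a fall of at least 1 in each replicate (log2 fold change -1.99 ± 0.34 (standard error), limma adjusted p = 0.011), the smallest p of the 55 genes. Mcm9 had 22.4, 35.9 and 16.2 TPM at 37°C and 25.5, 27.99 and 25.2 TPM at 26°C, and its conditions overlapped (log2 fold change 0.15, 95% interval -0.58 to 0.87). The ratio of Mcm8 to Mcm9 was 1.26, 0.728 and 1.05 at 37°C and 0.194, 0.122 and 0.303 at 26°C, lower in every cold-acclimated library than in any other. The limma adjusted p of Mcm8 was 0.053 and 0.057 with non-acclimated replicate 1 or 2 left out and 0.0504 with cold-acclimated replicate 1 left out, and the gene overlaps Trmt6 on the opposite strand, as Mcm9 does Asf1a.

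**Figure D3:**
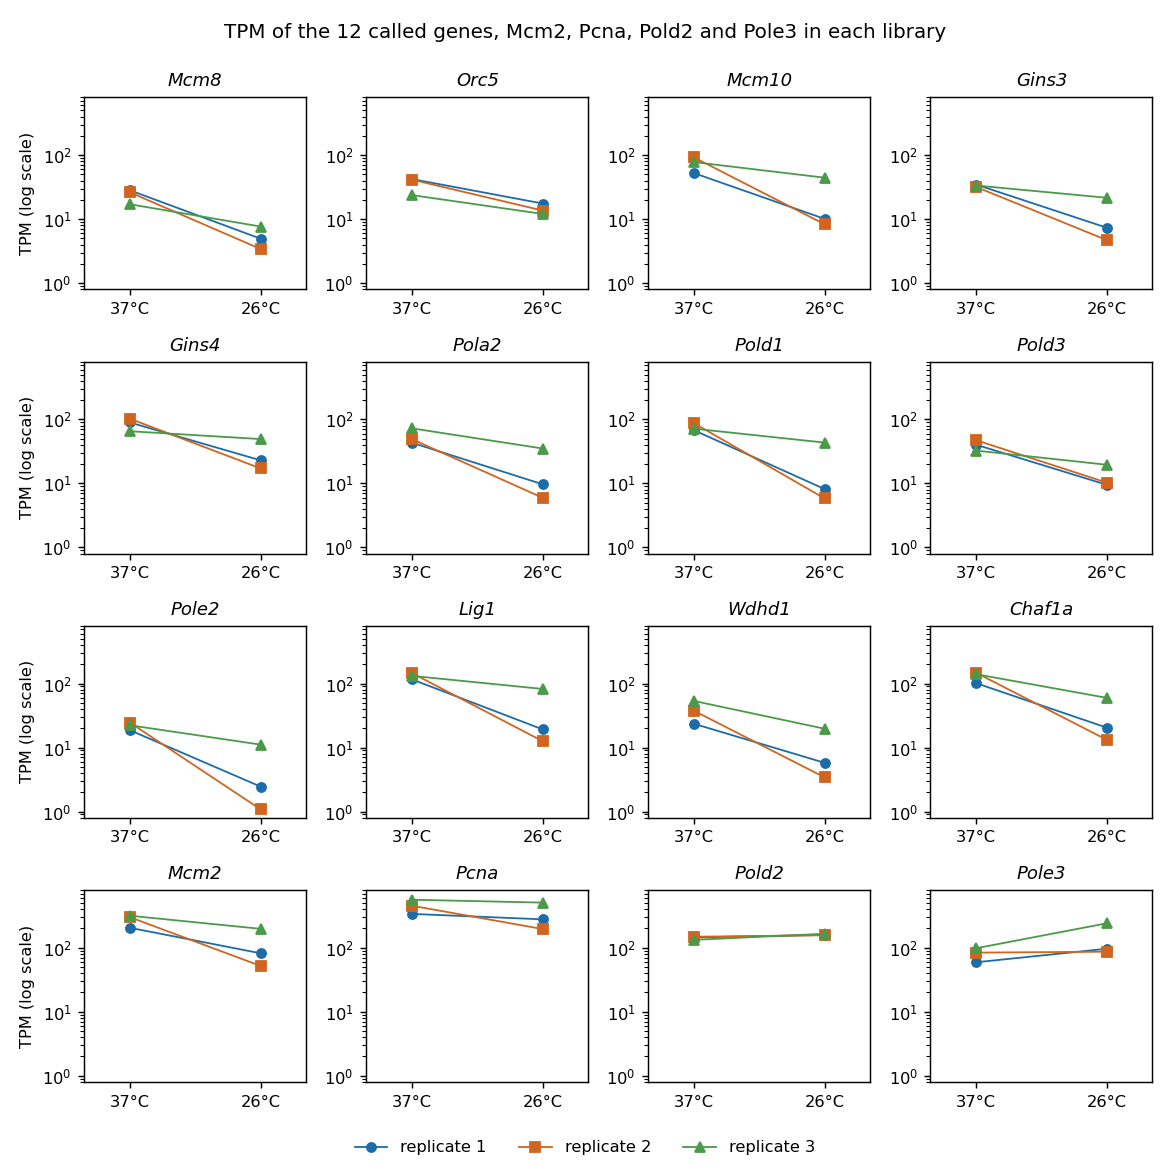
TPM on a log scale (vertical axis) at 37°C and 26°C (horizontal axis) of the 12 called genes and of Mcm2, Pcna, Pold2 and Pole3, with lines joining the libraries of replicate 1 (circles), replicate 2 (squares) and replicate 3 (triangles). The called genes fall in each replicate, with the shallowest line in replicate 3 for all of them, whereas Pold2 stays near 133 to 165 TPM.

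The origin recognition complex, which marks origins and recruits the loading factors, was the group with the smallest shift. Its 6 genes had a median log2 fold change of -0.28, which was 0.05 above the median of all tested genes, and 1 of them, Orc5, was downregulated. Orc5, on chromosome 5 (22691478 to 22755358), had 42.2, 41.3 and 23.7 TPM at 37°C and 17.5, 13.6 and 12.04 TPM at 26°C without overlap (log2 fold change -1.23 ± 0.30 (standard error), limma adjusted p = 0.030). Orc2, the gene of the complex with the highest mean level at 37°C, had 56.4, 77.8 and 86.2 TPM at 37°C and 47.5, 52.2 and 81.95 TPM at 26°C, which overlapped (log2 fold change -0.29, adjusted p = 0.51 in limma, and 0.10 after median of ratios scaling, on the other side of 0). The other 4 genes, Orc1, Orc3, Orc4 and Orc6, had values of -0.60 to 0.36 and were called in none of the fits with or without the block, after scaling or without replicate 3. The ratio of Orc5 to Orc4 was 1.25, 1.43 and 1.18 at 37°C and 0.5705, 0.404 and 0.702 at 26°C, so that Orc5 was the more abundant message in each 37°C library and Orc4 in each 26°C library. The call of Orc5 was lost after median of ratios scaling (adjusted p = 0.10 in limma) and without any one of non-acclimated replicates 1 and 2 and cold-acclimated replicates 1 and 2 (0.071 to 0.12).

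**Figure D4:**
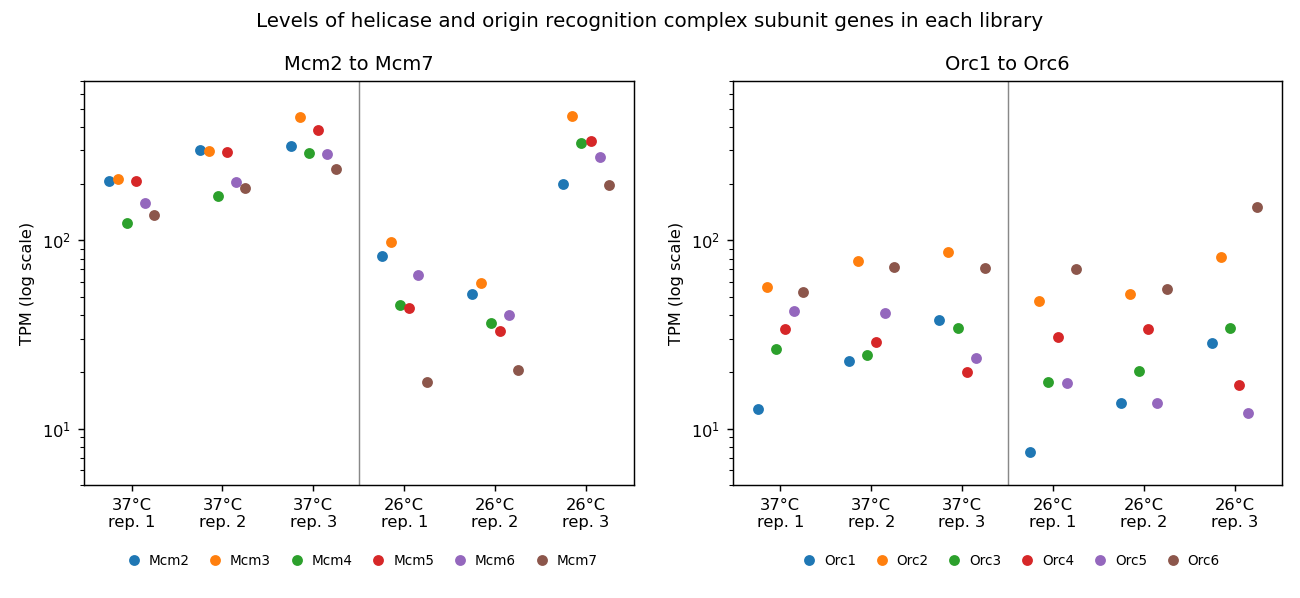
TPM on a log scale (vertical axis) of the 6 Mcm2-7 helicase genes (left) and the 6 origin recognition complex genes (right) in each of the 6 libraries (horizontal axis), 1 point per gene. The helicase genes lie close together at 37°C and apart at 26°C in replicates 1 and 2, where Mcm7 is at 17.6 and 20.5 TPM, and the highest origin recognition gene is 3.40 to 4.45 times the lowest at 37°C and 4.05 to 12.5 times at 26°C.

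Among the loading factors, Cdc6 and Cdt1 bring the helicase to the origin and geminin, the product of Gmnn, inhibits Cdt1. None of the 3 genes was called, while Cdc6 and Cdt1 were called with the block. Cdc6 had 13.9, 35.5 and 58.9 TPM at 37°C and 2.37, 2.499 and 30.2 TPM at 26°C, so that replicates 1 and 2 were low at 26°C and replicate 3 lay inside the 37°C range (log2 fold change -2.16 ± 0.91 (standard error), limma adjusted p = 0.13, 0.013 with the block). Cdt1, the loading factor with the highest level, had 63.6, 116 and 126 TPM at 37°C and 33.2, 26.01 and 95.5 TPM at 26°C with an overlap between conditions (log2 fold change -1.14, adjusted p = 0.14 in limma, 0.039 with the block). Gmnn had a log2 fold change of -1.17 and passed without replicate 3 only (adjusted p = 0.0057 in limma) among the fits with the block, after scaling and without that replicate. The ratio of Cdt1 to Gmnn was 2.82, 3.99 and 3.82 at 37°C and 4.7, 5.25 and 2.21 at 26°C, so that the conditions overlapped, with replicates 1 and 2 the highest and replicate 3 the lowest at 26°C.

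The Dbf4-dependent kinase fires licensed origins, with Cdc7 as its catalytic and Dbf4 as its regulatory subunit. Cdc7 had 24.9, 27.9 and 29.5 TPM at 37°C and 7.82, 4.31 and 22.4 TPM at 26°C, with no overlap (log2 fold change -1.46 ± 0.51 (standard error), limma adjusted p = 0.077, 0.028 with the block). Dbf4 had 161, 178 and 142 TPM at 37°C and 126, 106 and 233 TPM at 26°C, with the highest level of all in cold-acclimated replicate 3 and the lowest 2 in the other cold-acclimated libraries. Its log2 fold change was -0.13 (95% interval -0.88 to 0.62) and 0.27 after median of ratios scaling, on the other side of 0. The regulatory subunit was the more abundant message throughout, and the ratio of Cdc7 to Dbf4 was 0.155, 0.157 and 0.208 at 37°C and 0.0622, 0.0407 and 0.0964 at 26°C without overlap.

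Of the 7 helicase activation genes, Cdc45, Gins1 to Gins4, Mcm10 and Ticrr, 3 were among the 12 called genes (background 16.0%). With the block 5 were called (background 21.9%), and without replicate 3 all 7 were (background 25.5%). Gins4, a subunit of the GINS complex that travels with the helicase, had 89.2, 102 and 65.1 TPM at 37°C and 22.9, 17.1 and 49.1 TPM at 26°C (log2 fold change -1.61 ± 0.40 (standard error), limma adjusted p = 0.030). Gins3, another GINS subunit, had 34.6, 31.7 and 33.5 TPM at 37°C, the narrowest spread of the 3 genes, and 7.33, 4.698 and 21.5 TPM at 26°C (log2 fold change -1.74 ± 0.48 (standard error), limma adjusted p = 0.041). Mcm10, which binds the helicase when it is activated, had 52.2, 91.8 and 77.6 TPM at 37°C and 10.1, 8.28 and 44.3 TPM at 26°C (log2 fold change -2.13 ± 0.59 (standard error), limma adjusted p = 0.042). The conditions did not overlap for these 3 genes, with replicate 3 the highest at 26°C each time. The genes lie on chromosome 8 (Gins4, 23716626 to 23727684, and Gins3, 96360187 to 96371687) and chromosome 2 (Mcm10, 4995535 to 5017602). The group had a median log2 fold change of -1.61, between -1.28 and -2.13. After median of ratios scaling the adjusted p of the 3 genes was 0.055 to 0.070 in limma, and all 3 lost their calls without any one of non-acclimated replicates 1 and 2 and cold-acclimated replicates 1 and 2 (0.083 to 0.14), and Gins3 and Mcm10 also without non-acclimated replicate 3 (0.079 and 0.084).

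DNA polymerase alpha and primase start each new strand, and their genes had the lowest group median, -1.98, of the 14 groups. Pola2, which encodes the accessory subunit of the polymerase and lies on chromosome 19 (5990574 to 6014266), had 43.04, 48.9 and 72.2 TPM at 37°C and 9.67, 5.95 and 34.98 TPM at 26°C, and fell by at least 1 in each replicate (log2 fold change -1.97 ± 0.58 (standard error), limma adjusted p = 0.049). Prim1, the catalytic primase subunit and the most abundant of the 4 messages, had 72.98, 117 and 106 TPM at 37°C and 14.8, 11.02 and 78.7 TPM at 26°C. Its cold-acclimated replicate 3 lay inside the 37°C range, and it was called with the block (adjusted p = 0.024) but not without it (adjusted p = 0.071 in limma, log2 fold change -1.98). Pola1, the catalytic polymerase subunit, was likewise called with the block (0.021) and Prim2 was not (0.067), and all 4 genes passed without replicate 3 (background 25.5%). Pola2 lost its call with a pseudocount of 0.1, after median of ratios scaling (0.078) and without any one library other than cold-acclimated replicate 3 (0.10 to 0.15 in limma).

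DNA polymerase delta, which copies the lagging strand, showed a contrast between subunits. Pold1, the catalytic subunit on chromosome 7 (44182168 to 44198239), had 67.4, 86.7 and 71.4 TPM at 37°C and 8.12, 5.79 and 43.2 TPM at 26°C (log2 fold change -2.44 ± 0.65 (standard error), limma adjusted p = 0.037), the most negative mean change of the 55 genes. Pold3, an accessory subunit on chromosome 7 (99731317 to 99770709), had 40.1, 47.1 and 32.4 TPM at 37°C and 9.48, 10.2 and 19.5 TPM at 26°C (log2 fold change -1.59 ± 0.32 (standard error), limma adjusted p = 0.018). Both were lower in every 26°C library. Pold2, the second subunit, had 145, 149 and 133 TPM at 37°C and 159, 157 and 165 TPM at 26°C, so that each 26°C library was above each 37°C library by a small amount (log2 fold change 0.17, 95% interval -0.28 to 0.63, adjusted p = 0.56 in limma). The ratio of Pold1 to Pold2 was 0.464, 0.583 and 0.537 at 37°C and 0.0511, 0.03695 and 0.261 at 26°C, and the highest value at 26°C was again that of replicate 3. Pold4 was near the filter, with 0.304 to 3.92 TPM from 3 to 26 reads, and nothing was read from it. Pold1 was not called after median of ratios scaling (0.055) or without any one library other than cold-acclimated replicate 3 (0.070 to 0.12 in limma), and Pold3 not without any one of replicates 1 and 2 of either condition (0.065 to 0.078).

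DNA polymerase epsilon, which copies the leading strand, had a contrast of the same kind. Pole2, its second subunit, on chromosome 12 (69248547 to 69274979), had 18.6, 24.5 and 22.3 TPM at 37°C and 2.45, 1.09 and 11.1 TPM at 26°C without overlap (log2 fold change -2.35 ± 0.60 (standard error), limma adjusted p = 0.033). The 26°C value of replicate 2 rests on 23 reads, the fewest of any gene of the set but Pold4. Pole3, a small histone-fold subunit, had 59.3, 83.9 and 98.3 TPM at 37°C and 96.5, 86.8 and 241 TPM at 26°C, higher in each replicate pair while the conditions overlapped (log2 fold change 0.68, 95% interval -0.30 to 1.65, adjusted p = 0.28 in limma). It was called upregulated in 1 fit, with the block after median of ratios scaling (log2 fold change 1.07). Pole3 and Pold2 were the only 2 of the 55 genes above 0 in every replicate (3.64%, against 18.2% of all tested genes). The ratio of Pole2 to Pole3 was 0.314, 0.292 and 0.227 at 37°C and 0.0254, 0.0125 and 0.0461 at 26°C. Pole, the catalytic subunit, was called with the block (0.021) and Pole4, the partner of Pole3, was not (0.091). The call of Pole2 was lost without any one library other than cold-acclimated replicate 3 (0.066 to 0.11 in limma).

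The sliding clamp PCNA holds the polymerases on DNA and RFC loads it. Pcna was the most abundant message of the set at 37°C, with 338, 453 and 563 TPM at 37°C and 278, 196 and 508 TPM at 26°C, and its conditions overlapped. Its log2 fold change was -0.54 (95% interval -1.43 to 0.34, adjusted p = 0.34 in limma), and it was called neither with the block nor without replicate 3. None of the 5 loader genes was called, while Rfc1, Rfc2, Rfc4 and Rfc5 were called with the block. Rfc2 had 181, 194 and 232 TPM at 37°C and 49.6, 28.6 and 175 TPM at 26°C, with no overlap and replicate 3 just below the lowest 37°C library (log2 fold change -1.66 ± 0.59 (standard error), limma adjusted p = 0.083, 0.023 with the block). Rfc3 was the loader gene that differed from the rest, with a log2 fold change of -0.10 (95% interval -0.96 to 0.76) that was 0.29 after median of ratios scaling. The ratio of Rfc4 to Rfc3 was 1.15, 1.06 and 1.37 at 37°C and 0.271, 0.142 and 0.6304 at 26°C. Rfc4 overlaps Eif4a2 on the opposite strand.

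**Figure D5:**
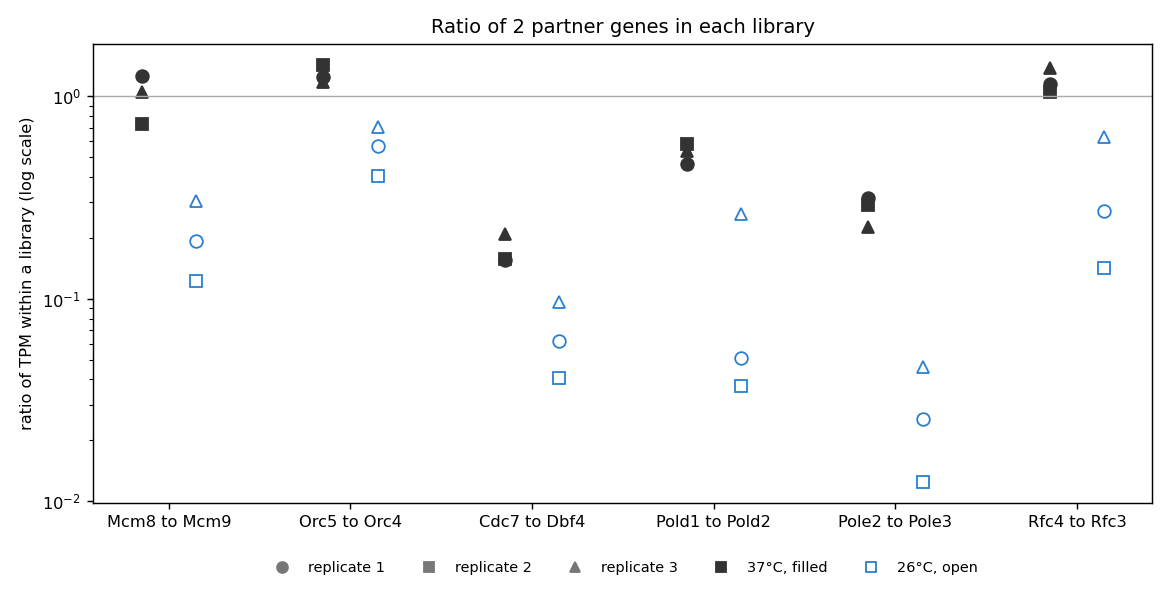
Ratio of the TPM of 2 partner genes within a library on a log scale (vertical axis) for 6 pairs (horizontal axis), at 37°C (filled) and 26°C (open) in replicate 1 (circles), replicate 2 (squares) and replicate 3 (triangles). In each of these pairs, which were chosen after their values were seen, the 26°C ratios lie below the 37°C ratios and replicate 3 is the highest of the 26°C points. Cdt1 to Gmnn, which is not drawn, had 26°C ratios of 2.21 to 5.25 that overlapped the 37°C ratios.

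RPA coats single-stranded DNA at the fork, and 0 of its 3 genes were called. Rpa3, the smallest subunit, had 296, 339 and 213 TPM at 37°C and 124, 97.7 and 195 TPM at 26°C without overlap (log2 fold change -1.05 ± 0.32 (standard error), limma adjusted p = 0.053). With the block Rpa3 (0.043) and Rpa1, which holds the main DNA-binding domains (0.020), were called, and Rpa2 was not (0.31), and Rpa3 was also called without non-acclimated replicate 3 (0.049 in limma). The log2 fold change of Rpa2 was -0.37 (0.03 after median of ratios scaling), with -0.50, -0.89 and 0.29 in replicates 1, 2 and 3, so its direction in replicate 3 was the opposite of that in the others.

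Of the pair that joins Okazaki fragments, Lig1 was called and Fen1 was not. Lig1, which seals the nicks and lies on chromosome 7 (13011101 to 13045351), had 116, 145 and 132 TPM at 37°C and 19.2, 12.6 and 82.3 TPM at 26°C without overlap (log2 fold change -2.21 ± 0.61 (standard error), limma adjusted p = 0.042). Fen1, the flap endonuclease and the message with the higher mean level at 37°C, had 121, 140.2 and 242 TPM at 37°C and 72.9, 57.3 and 149 TPM at 26°C, which overlapped. In replicate 2 at 37°C Lig1 was the higher of the pair. Its change was similar in the 3 replicates, -0.72, -1.28 and -0.69 on the log2 scale, and with the block its adjusted p was 0.020 while its log2 fold change of -0.90 stayed short of 1 in size. Fen1 overlaps Tmem258 on the opposite strand. Lig1 lost its call after median of ratios scaling (0.063) and without any one library other than cold-acclimated replicate 3 (0.081 to 0.13 in limma).

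Tipin, Timeless, Clspn and Wdhd1 protect the fork and couple the helicase to the polymerases, and all 4 were called with the block, 1 of them (Wdhd1) also without it. Wdhd1, which ties polymerase alpha to the helicase and lies on chromosome 14 (47478401 to 47514352), had 23.5, 37.4 and 53.4 TPM at 37°C and 5.77, 3.42 and 19.7 TPM at 26°C (log2 fold change -2.12 ± 0.58 (standard error), limma adjusted p = 0.040). Its fall in replicate 3, -1.40 on the log2 scale, was the most negative of the 55 genes in that replicate. Tipin, the most abundant of the 4, had 83.3, 126 and 155 TPM at 37°C and 37.03, 33.6 and 118 TPM at 26°C with an overlap (log2 fold change -1.14, adjusted p = 0.14 in limma, 0.028 with the block). Its partner Timeless had log2 fold changes of -2.86, -3.40 and -0.45 in replicates 1, 2 and 3, beside -1.15, -1.88 and -0.39 for Tipin. Wdhd1 was not called after median of ratios scaling (0.062) or without any one library other than cold-acclimated replicate 3 (0.072 to 0.13 in limma).

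CAF-1 deposits histones on newly copied DNA, and its 2 genes differed in the size of the change. Chaf1a, the large subunit, on chromosome 17 (56347404 to 56375027), had 101, 147 and 139.8 TPM at 37°C and 20.5, 13.2 and 59.7 TPM at 26°C, a fall of at least 1 in each replicate (log2 fold change -2.28 ± 0.51 (standard error), limma adjusted p = 0.022). Chaf1b had a log2 fold change of -0.57, with -0.89, -1.07 and 0.25 in replicates 1, 2 and 3, and was not called with or without the block. Falls of at least 1 in every replicate were seen for 4 of the 55 genes, Chaf1a, Mcm8, Pola2 and Wdhd1 (7.27%, against 9.44% of all tested genes). Chaf1a lost its call without any one of replicates 1 and 2 of either condition (0.062 to 0.084 in limma).

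Other genes of DNA replication, from a separate list of 31 such as topoisomerases, ribonuclease H2 subunits and histone chaperones, were counted in the same way. Of the 30 tested, 8 were downregulated (26.7%, against 16.0% of all tested genes) and 0 upregulated (background 2.63%). Of the 30, 15 were called with the block (background 21.9%), 1 (Chtf18) after median of ratios scaling (3.33%, against 8.79%) and 18 without replicate 3 (60.0%, against 25.5%), and Chtf8 was listed at 0 in every library. Their median log2 fold change was -0.98, which was -0.64 relative to all tested genes. The 2 with the smallest p were Rnaseh2a, a subunit of the nuclease that removes RNA from DNA, and Chtf18, of an alternative clamp loader. Rnaseh2a had 61.5, 70.5 and 40.9 TPM at 37°C and 22.3, 18.99 and 27.6 TPM at 26°C (log2 fold change -1.27, adjusted p = 0.022 in limma), and Chtf18 had 28.1, 32.9 and 30.1 and 2.89, 2.22 and 14.4 TPM (log2 fold change -2.44, adjusted p = 0.025). Neither gene overlapped between the conditions. The count was 0 when non-acclimated replicate 1 or 2 was left out (backgrounds 4.29% and 2.73%). It was also 0 when cold-acclimated replicate 1 or 2 was left out (backgrounds 3.82% and 4.90%). It was 2 without non-acclimated replicate 3 (background 15.0%) and 19 without cold-acclimated replicate 3 (background 22.3%).

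Of 12 genes for S phase entry and nucleotide supply, among them cyclins E and A and ribonucleotide reductase, 1 was downregulated (8.33%, against 16.0% of all tested genes) and 0 upregulated (background 2.63%). Of these genes, 7 were called with the block (58.3%, against 21.9%) and 9 without replicate 3 (75.0%, against 25.5%). After median of ratios scaling 1 was called (8.33%, against 8.79%), E2f1 (adjusted p = 0.045 in limma). The median log2 fold change was -1.32. E2f1, a transcription factor for many replication genes, had 30.03, 33.9 and 35.1 TPM at 37°C and 10.2, 5.74 and 17.3 TPM at 26°C without overlap (log2 fold change -1.61 ± 0.37 (standard error), limma adjusted p = 0.025). Ccne2, a cyclin E gene, had 13.3, 22.5 and 32.6 TPM at 37°C and 6.94, 4.34 and 12.5 TPM at 26°C, also without overlap (log2 fold change -1.43, adjusted p = 0.056 in limma, 0.014 with the block). E2f1 was not called without any one library other than cold-acclimated replicate 3 (0.054 to 0.088 in limma).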

How the data were processed

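Poly(A)+ RNA of D10 cells was sequenced by the authors with a strand-specific kit, and reads were aligned to GRCm39 with HISAT2 and counted per gene with featureCounts, with differential expression tested in DESeq2. The submitters' processing notes name FastQC 0.11.7, Trimmomatic 0.38, HISAT2 2.1.0 and featureCounts 1.6.3. The annotation release and the strand setting of the counting are not stated in the labels or the study's methods, so reads of overlapping genes on opposite strands may not be told apart. Among the called genes this applies to Chaf1a (Ubxn6), Lig1 (Zswim9) and Pole2 (Klhdc1) as well as to Mcm8. It also applies to Orc4 (Acvr2a and Mbd5) and Pold2 (Aebp1 and Gm53664), which are used in ratios above, and to other genes of the set. The part of shared reads was not tested.

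The TPM values were used as deposited by the authors. Read numbers were recovered from the steps of the TPM values for 100.0% of the 21195 genes above 0 (tolerance 1e-06 of a read), and the genes examined had between 23 and 16407 reads per library, Pold4 aside. Because the values are TPM, the genes whose mean reached 1 TPM were tested here with limma 3.58.1 (R 4.3.3, mean-variance trend) on log2(TPM + 1), which understates changes of low genes. Replicates were independently prepared according to the study's methods. Deviations from the condition means correlated across genes at 0.48, 0.50 and 0.51 between same-numbered libraries and at -0.41 to 0.02 between others, so the numbers were taken as pairs, and values with the replicate block are given beside the results they change.

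The alternatives were a pseudocount of 0.1, no filter, median of ratios scaling, quantile normalization, the replicate block, limma-voom on recovered reads and leaving out each library, and leaving out replicate 3 in both conditions was added after seeing the data. The genes, lists and tests were chosen with earlier results of these data known. In each of the 14 functional groups the gene with the smallest p and the one with the highest 37°C level are given in full, with all called genes, all genes higher at 26°C in every replicate, and Mki67 and Cd4, and other genes named were chosen after their values were seen. Gene positions are those of the deposited table, and other values were computed with Python 3.11.15. The fit on values as deposited, median of ratios scaling, the replicate block and limma-voom were also run on simulated counts with 200 changed genes. The other alternatives were not run on simulated counts.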

Additional observations from a re-analysis of the deposited data

How the results depend on the processing

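Of the 55 replication genes, 12 were called downregulated (21.8%, against 16.0% of all tested genes). The count was 4 after median of ratios scaling (7.27%, against 8.79%) and 5 after quantile normalization (9.09%, against 6.26%). It was 5 with limma-voom on recovered reads (9.09%, against 9.18%). It was 2 (Mcm8 and Pold3) without a filter on low values and 11 with a pseudocount of 0.1. For these last fits the share over all genes was not counted. With the replicate block it was 32 (58.2%, against 21.9%). With the replicate block after median of ratios scaling it was 22 (40.0%, against 12.6%), where 1 gene (Pole3) was upregulated (1.82%, against 8.88%). Without replicate 3 in both conditions it was 39 (70.9%, against 25.5%), and 38 when median of ratios scaling was added (69.1%, against 15.7%). With 1 library left out it ranged from 0 (backgrounds 2.73% to 4.29%) to 41 (74.5%, against 22.3%). Of the 30 other replication factors tested, 8 were called (background 16.0%). Without a filter the count was 1, and the share over all genes was not counted. After median of ratios scaling 1 was called (background 8.79%), after quantile normalization 4 (background 6.26%) and with limma-voom 1 (background 9.18%). The replicate block gave 15 (background 21.9%). Without replicate 3 there were 18 (background 25.5%), and 14 when median of ratios scaling was added (background 15.7%). With 1 library left out the count ranged from 0 (backgrounds 2.73% to 4.90%) to 19 (background 22.3%). The cause of these differences was not tested. The median of the 55 genes relative to all tested genes stayed below 0 in every alternative, from -0.66 (cold-acclimated replicate 2 left out) to -1.63 (cold-acclimated replicate 3 left out).

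Of the 55 genes, 8 had another direction in at least 1 fit, and 0 of these were called on the values as deposited. Dbf4 had a log2 fold change of 0.27 after median of ratios scaling with and without the replicate block, 0.27 in limma-voom and 0.10 without cold-acclimated replicate 2, within -0.46 to 0.10 over the single libraries left out. Orc2 had 0.099 to 0.10 in the first 3 of these fits and 0.044 without replicate 3 after median of ratios scaling. Mcm9 had -0.11 without non-acclimated replicate 3, within -0.11 to 0.44 over the single libraries left out, and -0.084 without replicate 3 in both conditions. After median of ratios scaling Orc3, Orc4, Rfc3 and Rpa2 had 0.11, 0.34, 0.29 and 0.03, from -0.27, -0.04, -0.10 and -0.37 on the values as deposited, and Orc6 had -0.06 without cold-acclimated replicate 3, from 0.36. The median over the 55 genes of the lowest read number in any library was 391, and Pold4 had 3 to 26 reads.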

Other observations

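Of the 55 replication genes, 8 have a tested protein-coding neighbour on the opposite strand that starts within 1 kb of their own start, and these pairs did not share 1 direction. Trmt6, which encodes a subunit of a transfer RNA methyltransferase and starts 86 bases from Mcm8 on chromosome 2, had 33.4, 48.6 and 40.96 TPM in replicates 1, 2 and 3 at 37°C and 159, 127 and 106 TPM at 26°C. It was upregulated (log2 fold change 1.65, adjusted p = 0.0090 in limma) where Mcm8 was downregulated, with no overlap between conditions for either gene, and the ratio of Mcm8 to Trmt6 was 0.842, 0.539 and 0.416 at 37°C and 0.0311, 0.02695 and 0.07196 at 26°C. Slc25a40, a mitochondrial carrier gene 13 bases from Dbf4, had 35.8, 27.8 and 18.6 TPM at 37°C and 6.05, 6.44 and 11.3 TPM at 26°C and was downregulated (log2 fold change -1.67, adjusted p = 0.019 in limma), while the log2 fold change of Dbf4 was -0.13. Prkdc, the catalytic subunit of a DNA repair kinase, which starts 489 bases from Mcm4, had 11, 7.11 and 10.5 TPM at 37°C and 1.45, 1.28 and 4.51 TPM at 26°C (log2 fold change -1.73, adjusted p = 0.025 in limma), and Mcm4 had -1.15. Umad1 beside Rpa3 and Mbd5 beside Orc4 were also downregulated (log2 fold change -1.94 and -1.10, adjusted p = 0.036 and 0.042 in limma). Socs4 beside Wdhd1, Pxmp2 beside Pole and Prpf38a beside Orc1 were not called, with log2 fold changes of -0.94, -1.10 and 0.34. The calls of Umad1 and Mbd5 were lost after median of ratios scaling (limma adjusted p 0.061 and 0.11). Leaving out replicate 1 or 2 of either condition ended the calls of Slc25a40, Prkdc, Umad1 and Mbd5 (0.069 to 0.14) but not that of Trmt6 (0.040 to 0.045). Leaving out non-acclimated replicate 3 ended those of Prkdc and Umad1 (0.055 and 0.071), and leaving out cold-acclimated replicate 3 that of Mbd5 (0.051). These pairs were looked at after the values were seen, and where the genes of a pair overlap, as Mcm8 and Trmt6 and Dbf4 and Slc25a40 do, the part of shared reads in the values was not tested.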
